A study of Mus musculus with 12 samples.

Results

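NIH-3T3 is an established line of wild-type mouse fibroblasts, and 4-thiouridine (4sU) is a uridine analogue that living cells take up and build into newly made RNA. The series measured total RNA from 12 libraries of these cells, of which the 6 described here were the 2 unlabelled libraries (no4sU, replicates A and B), the 2 libraries labelled for 15 min and the 2 libraries labelled for 30 min. They were chosen by their labels as those that bear on the start of labelling, and the 6 libraries labelled for 60, 90 or 120 min served only for reference. The 4 short-labelling libraries were compared with the 2 unlabelled libraries gene by gene, together and with each unlabelled library alone.

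The labelled cells received 800 µM 4sU, the unlabelled cells received none, and the labels name no other difference between the groups. After extraction the RNA was treated with iodoacetamide (IAA), which alters 4sU so that sequencing reads it as C and labelled molecules can be told from older ones. The deposited new-to-total RNA ratio (NTR) is a model estimate of how much of a gene's RNA is younger than the start of labelling, relative to all of it. NIH-3T3 cells stand for growing fibroblasts in culture, and the labels do not say whether A and B were separate cultures, so p-values measure only the spread between these libraries. In bulk RNA, fewer cells of a type and less RNA per cell cannot be told apart.

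As background, immediate early genes such as Fos, Egr1, Jun and Myc are transcribed within minutes of serum, stress or handling, from promoters that need no new protein, and their mRNAs are short-lived. A response to 4sU itself, if present, would be looked for among these genes, among targets of p53, which is activated by damage to DNA or to the nucleolus, and among heat shock and integrated stress response genes. Read counts of a gene also depend on how intact the RNA was and how the library was made, and both can act by transcript length and base composition. No measure of RNA integrity was used here, so whether RNA quality differed between libraries was not tested.

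The 6 libraries held between 9916957 (30 min B) and 13739355 (no4sU B) reads counted to genes, and 11430 of 17419 genes passed the filter on low counts. The 10 most abundant genes took between 4.23% and 4.37% of the reads of each. Collagen, fibronectin and the other fibroblast markers were present, with all 10 tested and a summed level of 16421 to 17503 CPM, the reads of a gene scaled to a common library size. The 2 epithelial markers in the table summed to between 0.101 and 0.916 CPM, the endothelial markers to between 1.06 and 2.43 CPM, the muscle markers to between 2.25 and 4.29 CPM, the neuronal markers to between 7.07 and 10.4 CPM and the macrophage and leukocyte markers to between 18.7 and 25.0 CPM. Of the macrophage and leukocyte markers 3 passed the filter, and Cd14 alone was at 11.7 to 16.7 CPM. The no4sU A library stood apart from the other 5. Over the 9094 genes whose mean count was 100 or more, here called well-counted genes, the SD of the log2 difference between libraries was 0.21 for no4sU A against no4sU B, 0.18 to 0.19 for no4sU A against single labelled libraries, 0.12 to 0.13 for no4sU B against them, and 0.11 to 0.12 between labelled libraries. Results are therefore given with each unlabelled library alone as well.

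No gene was called higher or lower in the short-labelling libraries than in the 2 unlabelled libraries (edgeR quasi-likelihood test, Benjamini-Hochberg adjusted p below 0.05, 0% of 11430 genes). At an unadjusted p below 0.05 there were 476 genes, DESeq2 called 0 with 135 at an unadjusted p below 0.05, and limma voom with library weights called 0 with 241. The comparisons of 15 min and of 30 min with no4sU also called 0 genes (0% in each), with 343 and 374 at an unadjusted p below 0.05, and 30 min against 15 min called 0 (0%) with 163. DESeq2 called 0 in these comparisons as well, with 81, 86 and 12 genes in the same order. Changes were small: the median size of the log2 fold change over tested genes was 0.067, and among well-counted genes none reached 1 and 3 exceeded 0.5 (Scand1, Zfp771 and Pawr). The median standard error (SE) of these genes was 0.081, and in this fit even Scand1, with the largest change (0.67 ± 0.25, SE), could not be told from the spread. A p that misses the threshold does not show that the levels were equal.

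With both unlabelled libraries as reference, no immediate early gene could be told from its level in unlabelled cells, while much of the RNA of these genes was estimated as new. Of 50 such genes, 47 were tested, 0 were called, and their log2 fold changes had a median of -0.0062, beside 0.00085 over all tested genes. Their median NTR was 12.4% and 6.24% in the 15 min libraries and 47.5% and 47.0% in the 30 min libraries, against 1.27%, 0.61%, 5.30% and 5.44% over all tested genes. Myc, a transcription factor of growth, was at 162 and 143 CPM in no4sU A and B, at 153 and 150 CPM at 15 min and at 157 and 136 CPM at 30 min. The labelled and unlabelled values of Myc overlapped, and its NTR was 60.5% and 63.5% at 30 min. Jun, a subunit of the AP-1 transcription factor, was at 170 and 145 CPM without 4sU, at 174 and 153 CPM at 15 min and at 163 and 151 CPM at 30 min, again with overlap.

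Egr1, a zinc finger transcription factor induced by serum, varied with the replicate letter more than with labelling. It was at 67.7 CPM in no4sU A and 45.9 CPM in no4sU B, at 63.9 and 44.4 CPM at 15 min, and at 69.0 and 41.6 CPM at 30 min. Every A library was thus above every B library, and the log2 fold change of short labelling was -0.034 ± 0.19 (SE). This order was not particular to Egr1, as Jun, Myc, Fosl1, Ier2 and Klf2, among others on the list, had it too. In Nr4a2 every B library was above every A library, with 25.7 to 29.1 CPM against 22.7 to 22.8 CPM, and Per1 and Atf3 had this reverse order as well. How many of all tested genes had either order was not counted, so neither order can be read as a trait of early genes. Fos, the partner of Jun in AP-1, was low in all 6 libraries, between 1.37 and 3.13 CPM, with a mean count of only 24.7. Its NTR was estimated at 0% in both 15 min libraries and at 100% and 97.2% at 30 min.

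The values of 6 immediate early genes did not overlap between labelled and unlabelled libraries, 2 higher and 4 lower, where 6.02% of all tested genes were without overlap and higher and 6.98% were without overlap and lower. They were named after their values were seen. Dusp1, a phosphatase that ends MAP kinase signalling, was at 157 and 150 CPM without 4sU, at 149 and 144 CPM at 15 min and at 120 and 136 CPM at 30 min. Its NTR was 89.2% and 92.0% at 30 min. Ier3, an early gene that affects cell survival, was at 125 and 133 CPM without 4sU and between 106 and 118 CPM in 3 of the 4 labelled libraries, with 121 CPM in 30 min B, and it had the lowest log2 fold change of the list among well-counted genes (-0.19 ± 0.071, SE, edgeR adjusted p = 0.977). Plk2 and Ccl2 were the other lower genes and Ier5 and Klf4 the higher ones, with log2 fold changes of -0.070, -0.16, 0.11 and 0.13. Jund had the highest of the list, 0.21 ± 0.13 (SE), with 31.8 CPM in no4sU A, 21.2 CPM in no4sU B and 27.5 to 31.5 CPM in the labelled libraries, so only the B library was apart.

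With a single unlabelled library as reference, a few immediate early genes were called. Against no4sU A alone 3 were called higher with labelling (Klf4, Dusp4 and Ptgs2) and 3 lower (Fosl1, Dusp1 and Dusp5), beside 10.3% and 6.26% of all genes. Against no4sU B alone 2 were called higher (Jund and Ier5l, edgeR adjusted p = 0.0015 and 0.0030) and 2 lower (Ier3 and Ptgs2, adjusted p = 0.015 and 0.039), beside 0.665% and 0.324% of all genes. The GC content of Jund, the share of G and C in its transcript, was 67.1%, beside a median of 49.4% over tested genes. In the 909 well-counted genes with the most GC (57.6% to 69.7%), no4sU B was below the labelled libraries by a median log2 difference of -0.061. Ptgs2, the inducible enzyme of prostaglandin synthesis, was at 719 CPM in no4sU A, 925 CPM in no4sU B, 887 and 842 CPM at 15 min and 792 and 826 CPM at 30 min. The labelled libraries thus lay between the unlabelled ones, and the sign of the call on Ptgs2 turned with the reference.

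With both unlabelled libraries as reference, no gene was called among 16 tested p53 targets, 21 integrated stress response genes, 13 heat shock genes, 10 antioxidant genes or 6 interferon response genes, with median log2 fold changes of 0.024, -0.018, 0.027, -0.011 and 0.10. Cdkn1a, the cell cycle inhibitor induced by p53, was at 122 and 109 CPM without 4sU, at 119 and 114 CPM at 15 min and at 106 and 111 CPM at 30 min, and Mdm2, which degrades p53, stayed between 102 and 111 CPM in all 6. Atf4, the central transcription factor of the integrated stress response, was at 589 and 531 CPM without 4sU and between 514 and 547 CPM in the labelled libraries. Hspa1a, an inducible chaperone, was at 10.9 and 12.1 CPM without 4sU and between 11.8 and 13.5 CPM with it. Nucleolar ribosome biogenesis genes (20 tested, median -0.0079), mitosis genes (20, 0.034), DNA replication genes (20, 0.0028), Yap targets (8, 0.058) and cholesterol synthesis genes (17, 0.0068) had 0 called in the same fit. The lists of mitochondrially encoded genes and of replication-dependent histone genes could not be described, with 0 and 1 genes tested.

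Against no4sU A alone, where 10.3% of all genes were called higher and 6.26% lower, single members of these lists were called. They were 1 higher (Ccng1) and 1 lower (Bax) of the p53 targets, 1 higher (Slc7a11) and 3 lower (Atf4, Nupr1 and Phgdh) of the integrated stress response genes, 3 higher (Hsph1, Hsp90aa1 and Hspa4l) and 1 lower (Hspe1) of the heat shock genes, and 1 higher and 1 lower of the antioxidant genes. Ifit2 was called higher among the interferon response genes. The counts higher and lower were 3 and 3 for nucleolar ribosome biogenesis, 5 and 0 for mitosis, 1 and 0 for DNA replication, 2 and 0 for Yap targets and 2 and 2 for cholesterol synthesis. Against no4sU B alone, where 0.665% were called higher and 0.324% lower, Phlda3 of the p53 targets and Cebpb and Atf5 of the integrated stress response genes were called higher (edgeR adjusted p = 0.00087, 0.00011 and 0.0089), and the other 8 of these 10 lists had 0 called. Cebpb, a transcription factor of that response, was at 51.1 CPM in no4sU A, 34.2 CPM in no4sU B and between 44.6 and 51.5 CPM with labelling, so only no4sU B was low. Its GC content was 67.2%, as high as that of Jund.

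The result depended on which unlabelled library was the reference. Against no4sU A alone, 1889 genes were called (16.5% of tested genes), 1174 higher in the short-labelling libraries (10.3%) and 715 lower (6.26%). Against no4sU B alone, 113 genes were called (0.989%), 76 higher (0.665%) and 37 lower (0.324%). The unlabelled libraries themselves differed in 2000 genes (17.5%), with 855 higher in no4sU A (7.48%) and 1145 lower (10%). In these fits the lone library is assumed to vary like the labelled groups, with 2 residual degrees of freedom, and the biological coefficient of variation was 2.32%, against 5.64% when the unlabelled libraries were taken as replicates of each other.

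Long transcripts read lower, and short transcripts higher, in no4sU A than in the labelled libraries. Over the 9094 genes the log2 difference of no4sU A to the mean of the labelled libraries had a Spearman rho of -0.604 with the deposited gene length, while no4sU B had a rho of 0.175 and the 4 labelled libraries, each against the other 3, had between -0.121 and 0.111. Genes are not independent replicates, and these correlations are descriptions. In the first of 10 length bins, the shortest genes (median length 1145 bases) the median log2 difference of no4sU A was 0.17, and in the last bin (median 8563 bases) it was -0.21. For no4sU B the same medians were -0.025 and 0.025. Against no4sU A, 308 of the 910 shortest genes were called lower with labelling and 4 higher, and of the 910 longest 3 were called lower and 479 higher.

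Base composition separated the unlabelled libraries in opposite directions. With the GC content of the transcript, taken for each gene from GENCODE M21, the rho was 0.472 for no4sU A and -0.383 for no4sU B, and between -0.228 (30 min B) and 0.197 (30 min A) for the labelled libraries. In the GC bin with the least GC (median 39.7%) the median log2 difference was -0.14 in no4sU A and 0.058 in no4sU B. In the bin with the most GC (median 59.2%) it was 0.095 and -0.061. Length and GC content were themselves related, with a rho of -0.273. Given GC content, the partial rho with length was -0.561 for no4sU A and 0.0788 for no4sU B, and given length, the partial rho with GC content was 0.401 and -0.354.

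Both features therefore moved with no4sU A, and GC content more than length with no4sU B. Among long genes of low GC content (the top of 3 classes by length and the bottom of 3 by GC, 1309 genes) the median log2 difference of no4sU A was -0.19, and among short genes of high GC content (1418 genes) it was 0.14. In no4sU B these medians were 0.046 and -0.056. When a smooth trend on length was removed from each library, the calls against no4sU A fell from 1889 to 478, and with a trend on length and then on GC content, chosen after seeing the data, to 323. The calls against no4sU B were 77 and 46, and those between the unlabelled libraries 707 and 337. Their part in the remaining calls was not tested.

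**Figure D1:**
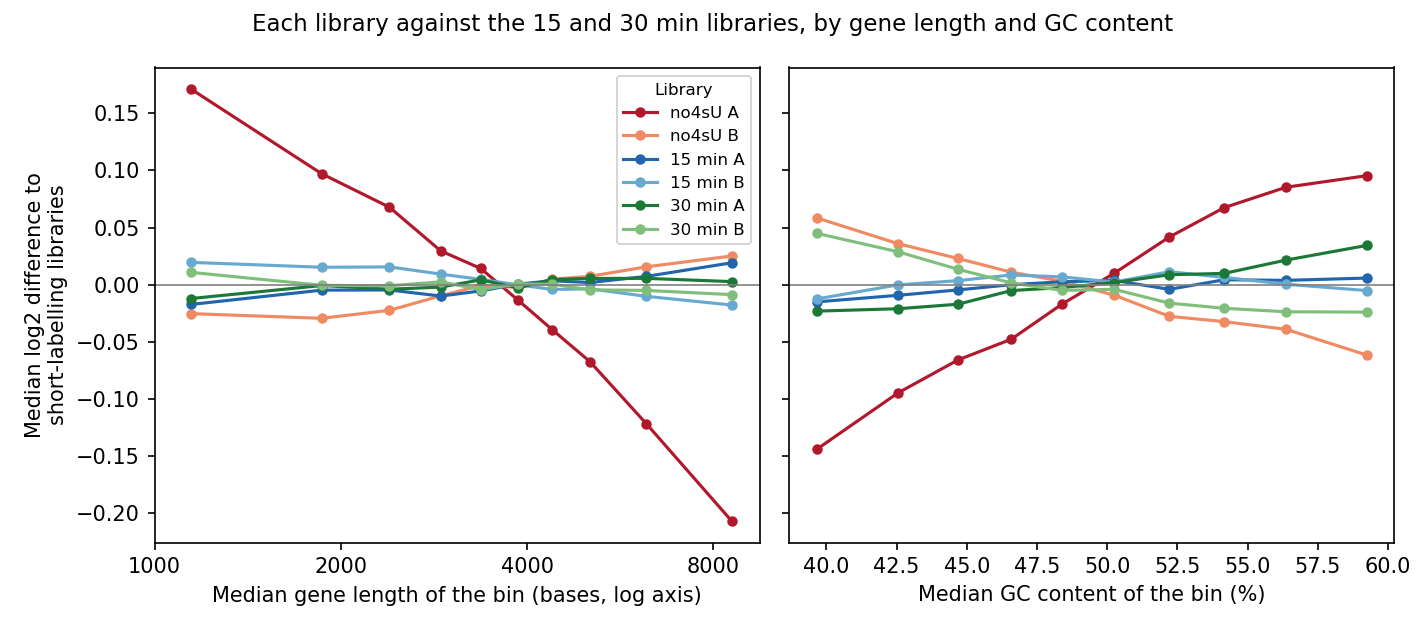
Median log2 difference of each library to the mean of the short-labelling libraries (for a labelled library, of the other 3), in 10 bins of gene length (left, bases, log axis) and of GC content (right, percent), over well-counted genes. The line of no4sU A falls from 0.17 to -0.21 with length and rises from -0.14 to 0.095 with GC content, and that of no4sU B falls from 0.058 to -0.061 with GC content.

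Genes with the largest differences between no4sU A and no4sU B were looked at as single transcripts. The first 120 coding bases of 4 of them are shown, chosen after their values were seen, to show how far apart their base composition is, with G and C in capitals. They are spliced sequences of the GENCODE M21 transcript (GRCm38), read 5′ to 3′ on the coding strand. Scand1 and Zfp771 were lower in no4sU B, and Prrg1 and Zfp329 lower in no4sU A.
Scand1: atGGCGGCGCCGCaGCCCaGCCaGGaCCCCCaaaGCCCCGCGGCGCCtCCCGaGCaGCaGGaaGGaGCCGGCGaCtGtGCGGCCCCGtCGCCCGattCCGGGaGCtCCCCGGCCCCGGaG
Zfp771: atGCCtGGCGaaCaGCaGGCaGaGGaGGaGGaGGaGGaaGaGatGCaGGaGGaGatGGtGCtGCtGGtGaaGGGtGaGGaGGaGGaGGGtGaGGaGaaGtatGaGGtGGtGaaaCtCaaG
Prrg1: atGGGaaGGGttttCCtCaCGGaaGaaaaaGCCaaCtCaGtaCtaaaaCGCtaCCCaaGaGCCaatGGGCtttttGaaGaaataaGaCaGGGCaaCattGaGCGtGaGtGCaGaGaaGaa
Zfp329: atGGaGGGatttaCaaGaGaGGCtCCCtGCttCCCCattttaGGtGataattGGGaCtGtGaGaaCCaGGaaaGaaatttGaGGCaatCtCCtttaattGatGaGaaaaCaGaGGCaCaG
G and C make up 94 of the 120 bases of Scand1 and 69 of Zfp771, and 54 of Prrg1 and 52 of Zfp329. Over the whole transcripts GC content was 68.4% and 68.7% for Scand1 and Zfp771, and 33.4% and 39.7% for Prrg1 and Zfp329, beside a median of 49.4% over tested genes. Their deposited lengths differed as well, with 803 and 1484 bases against 3964 and 6727 bases. The Scand1 transcript used here has 759 bases, fewer than its deposited length. Not every gene with a large difference was at an end of the GC range: Gm45799, also lower in no4sU B, had a GC content of 50.0%. Length did not order all of them either, beside a median of 3440 bases over tested genes. Gm45799 and Rusc1, lower in no4sU B, had 3795 and 3706 bases, and Uprt, lower in no4sU A, had 2304 bases.

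Scand1 (ENSMUSG00000046229, chr2:156311847-156312704, minus strand), a protein with a SCAN domain, was at 15.4 CPM in no4sU A, 5.95 CPM in no4sU B, 17.9 and 14.1 CPM at 15 min and 18.1 and 14.7 CPM at 30 min. Only no4sU B was low, and short labelling was higher than no4sU B by 1.45 ± 0.16 on the log2 scale (SE, edgeR adjusted p = 7.9e-09) and differed from no4sU A by 0.083 ± 0.14 (adjusted p = 0.75). Scand1 overlaps Cnbd2, and no source used here says whether counting used the strand. Zfp771 (chr7:127244274-127254803, plus strand), a zinc finger protein, was at 11.6 CPM in no4sU A, 5.80 CPM in no4sU B and between 10.8 and 14.2 CPM in the labelled libraries, the same order as Scand1. Tcf7l1, a transcription factor of the Wnt pathway, was at 11.1 CPM in no4sU A, 5.15 CPM in no4sU B and 9.16 to 11.2 CPM in the labelled libraries. Gm45799 and Rusc1 completed the 5 largest differences in this direction, with log2 differences of 0.82 and 0.75.

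Malat1, an abundant nuclear non-coding RNA, had the largest difference in the other direction, with 988 CPM in no4sU A and 1974 CPM in no4sU B (edgeR adjusted p = 6.2e-20). The 15 min libraries held 1116 and 1015 CPM and the 30 min libraries 1145 and 1395 CPM, all between the unlabelled ones. It was therefore called higher with labelling against no4sU A (0.23, adjusted p = 0.00042) and lower against no4sU B (-0.76, adjusted p = 1.1e-20). Zfp329 (chr7:12804977-12818858), a zinc finger protein, was at 7.58 CPM in no4sU A, 14.3 CPM in no4sU B and between 11.6 and 13.4 CPM with labelling. Prrg1, a membrane protein with a Gla domain (chrX:78449613-78583896), was at 8.16 CPM in no4sU A, 15.0 CPM in no4sU B and between 11.6 and 16.5 CPM with labelling. For both genes no4sU A was the low library. Zbtb26 and Uprt had log2 differences between no4sU A and B of -0.84 and -0.81.

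Of all tested genes, 12 (0.105%) passed the threshold with the same sign against each unlabelled library, 9 lower and 3 higher with short labelling, and 22 passed with opposite signs. Both comparisons use the same 4 labelled libraries, so the values against A and B are given side by side and are not independent of each other. In the main fit, with the unlabelled libraries taken as replicates, none of the 12 passed (edgeR adjusted p = 0.977 for each). Snhg12 did with no filter on low counts (adjusted p = 0.00501) and Taf1d with the length and GC correction (adjusted p = 0.0137). With a replicate block and length correction, alone or with GC correction, 6 of the 12 passed (Snhg12, Taf1d, Rsrp1, Leng8, Clcf1 and Neat1). Under 12 alternative settings of the fits against single unlabelled libraries, Snhg12, Rsrp1 and Taf1d were past the threshold against both in 12. Zfp36l2 and Rpl39 were past it against both in 10, and the others in 5 to 9. Without 30 min B the number of such genes was 21, with 11 of the 12 among them. With the length correction only Snhg12, Rsrp1 and Taf1d of the 12 passed against both libraries. Leng8, Clcf1 and Neat1 then passed against no4sU A and missed against no4sU B (edgeR adjusted p between 0.0870 and 0.0904), Nfix, Polr2a, Chchd1, Zfp36l2 and Rpl39 the reverse, and Snhg6 missed against both. The log2 fold change of Rpl39 against no4sU A went from -0.22 to 0.0037 with this correction, and that of Chchd1 from -0.32 to -0.092. That of Neat1, whose deposited length is 20771 bases, moved away from 0, from -0.21 to -0.60, so its passing rests in part on the correction. Over all 12 libraries 5 of the 12 passed against both, namely Snhg12, Rsrp1, Taf1d, Zfp36l2 and Rpl39.

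**Figure D2:**
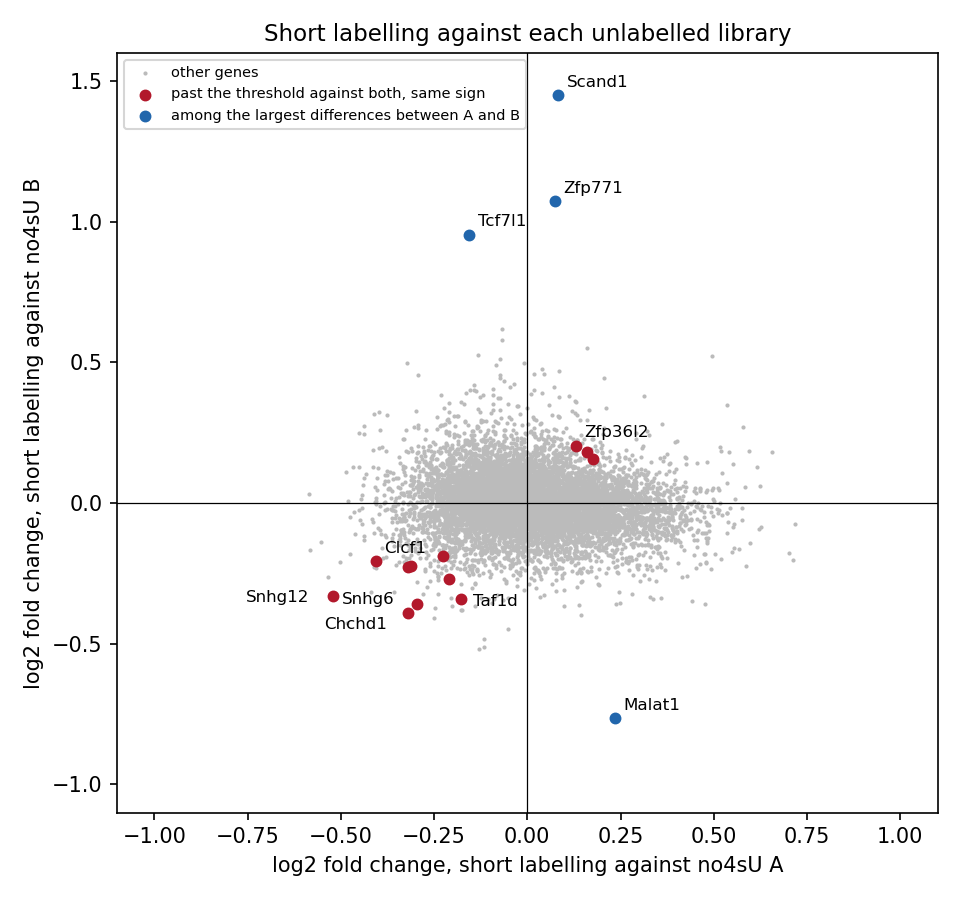
Log2 fold change of the short-labelling libraries against no4sU A (horizontal) and against no4sU B (vertical), each point 1 of the 9094 well-counted genes. The 12 genes past the threshold against both lie between 0.13 and 0.52 from 0 on either axis (red), and Scand1, Zfp771, Tcf7l1 and Malat1 (blue) lie farther from 0 against no4sU B than against no4sU A.

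Of the 9 lower genes, 2 (Snhg12 and Snhg6) are on the list of hosts of small nucleolar RNAs, which guide the modification of ribosomal RNA and are cut from introns of their host transcript. Snhg12 (ENSMUSG00000086290, chr4:132308623-132311024, plus strand) had the lowest fold change against no4sU A. It was at 56.4 and 49.4 CPM in no4sU A and B, at 43.9 and 39.8 CPM at 15 min and at 37.6 and 36.2 CPM at 30 min. All 4 labelled libraries were below both unlabelled ones, with log2 fold changes of -0.52 ± 0.082 against A and -0.33 ± 0.078 against B (SE, edgeR adjusted p = 2.3e-06 and 0.015). The NTR of Snhg12 was 38.3% and 24.0% at 15 min and 85.5% and 91.8% at 30 min. Libraries labelled for 60 to 120 min, scaled over all 12 libraries, held between 36.1 and 46.9 CPM. Snhg12 overlaps the small nucleolar RNA genes Snora16a, Snora44, Snora61 and Snord99 that it hosts. Of the 12 genes, Taf1d, Snhg6, Leng8, Clcf1, Chchd1, Nfix, Zfp36l2 and Neat1 overlap other genes as well. Reads of the overlapping genes cannot be told apart where strand was not used.

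Snhg6 (chr1:9941959-9944118, minus strand) was at 31.5 and 32.9 CPM without 4sU, at 26.0 and 27.1 CPM at 15 min and at 22.2 and 27.8 CPM at 30 min, without overlap. Against A and B its log2 fold changes were -0.30 and -0.36 (edgeR adjusted p = 0.041 and 0.043), and its NTR at 30 min was 65.8% and 60.5%. Taf1d (chr9:15306214-15316991, plus strand), a subunit of the RNA polymerase I factor SL1, overlaps several small non-coding RNA genes. It was at 186 and 208 CPM without 4sU, at 177 and 167 CPM at 15 min and at 151 and 162 CPM at 30 min. The labelled libraries were again all lower, with log2 fold changes of -0.18 and -0.34 against A and B (adjusted p = 0.0093 and 2.4e-06) and an NTR of 50.2% and 46.5% at 30 min.

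The list of small nucleolar RNA host genes, drawn up with earlier results of these data known, had 10 members, of which 7 passed the filter and were tested. Against no4sU A, 4 were called lower and 0 higher, and against no4sU B, 2 lower and 0 higher, beside 6.26% and 0.324% of all genes called lower. The list's median log2 fold change was -0.29 against A and -0.20 against B, beside -0.0071 and 0.0010 over all genes, and -0.29 with both as reference, where 0 were called. Its tested genes had a median length of 1538 bases. In the bin of the shortest genes, up to 1544 bases, the median log2 differences of no4sU A and B to the labelled libraries were 0.17 and -0.025. The part of length in the list's values was not tested. Snhg16 was at 20.0 and 14.9 CPM without 4sU and between 12.1 and 15.2 CPM with it, and Snhg15 at 40.1 and 39.7 CPM without and between 31.3 and 35.7 CPM with it. Snhg18 and Snhg20 were between 8.08 and 13.4 CPM in all 6 libraries, and Snhg4 between 119 and 139 CPM with an NTR of 3.56% and 4.93% at 30 min. The median NTR of the list was 26.4% and 14.5% at 15 min and 65.8% and 75.7% at 30 min.

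Leng8, Rsrp1, Clcf1 and Neat1 were lower with labelling and differed in their share of new RNA. Rsrp1, an arginine- and serine-rich protein, was at 151 and 142 CPM without 4sU and between 116 and 127 CPM with it, and Leng8 at 144 and 135 CPM without and between 106 and 124 CPM with it. Clcf1, a cytokine of the interleukin-6 family, was at 157 and 137 CPM without 4sU, 132 and 117 CPM at 15 min and 119 and 106 CPM at 30 min. These 3 were without overlap between the groups, and their NTR at 30 min was 24.3% and 30.3%, 13.4% and 15.4%, and 32.5% and 38.9%. Neat1, the RNA scaffold of nuclear paraspeckles, was at 169 and 175 CPM without 4sU, at 145 and 114 CPM at 15 min and at 154 and 174 CPM at 30 min, where the groups overlapped and the 30 min B library was level with the unlabelled ones. The 60 to 120 min libraries held between 166 and 196 CPM of Neat1, above all but 1 of the short-labelling libraries.

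Chchd1 and Rpl39, 2 short mRNAs of proteins of the mitochondrial and cytosolic ribosome, were lower as well, and little of their RNA was estimated as new. Chchd1 was at 31.0 and 32.5 CPM without 4sU and between 22.6 and 26.2 CPM with it, with an NTR of 3.03% and 2.87% at 30 min. Rpl39 was at 336 and 327 CPM without 4sU and between 280 and 302 CPM with it, with an NTR of 1.43% and 1.59%. Neither was called lower at 60 to 120 min, where Chchd1 held between 25.0 and 37.7 CPM and Rpl39 between 290 and 369 CPM (edgeR adjusted p = 0.76 and 0.52 against no4sU).

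The 3 higher genes were Polr2a, Nfix and Zfp36l2. Polr2a, the largest subunit of RNA polymerase II, was at 377 and 382 CPM without 4sU and between 403 and 442 CPM with it. Nfix, a nuclear factor I protein, was at 194 and 191 CPM without and between 205 and 225 CPM with it. Zfp36l2, which binds AU-rich elements and destabilises mRNAs, was at 423 and 402 CPM without and between 455 and 484 CPM with it, and at 60 to 120 min it was between 376 and 412 CPM. All 3 were without overlap, with log2 fold changes of 0.13 to 0.18 against A and 0.16 to 0.20 against B. Averaged over the 4 labelled libraries, 10 of the 12 genes had an NTR above the median of the 9094 genes, and Chchd1 and Rpl39 did not. Polr2a was near that median, with 5.62% and 5.89% at 30 min against 5.14% and 5.32%. Whether the NTR bears on these changes was not tested.

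**Figure D3:**
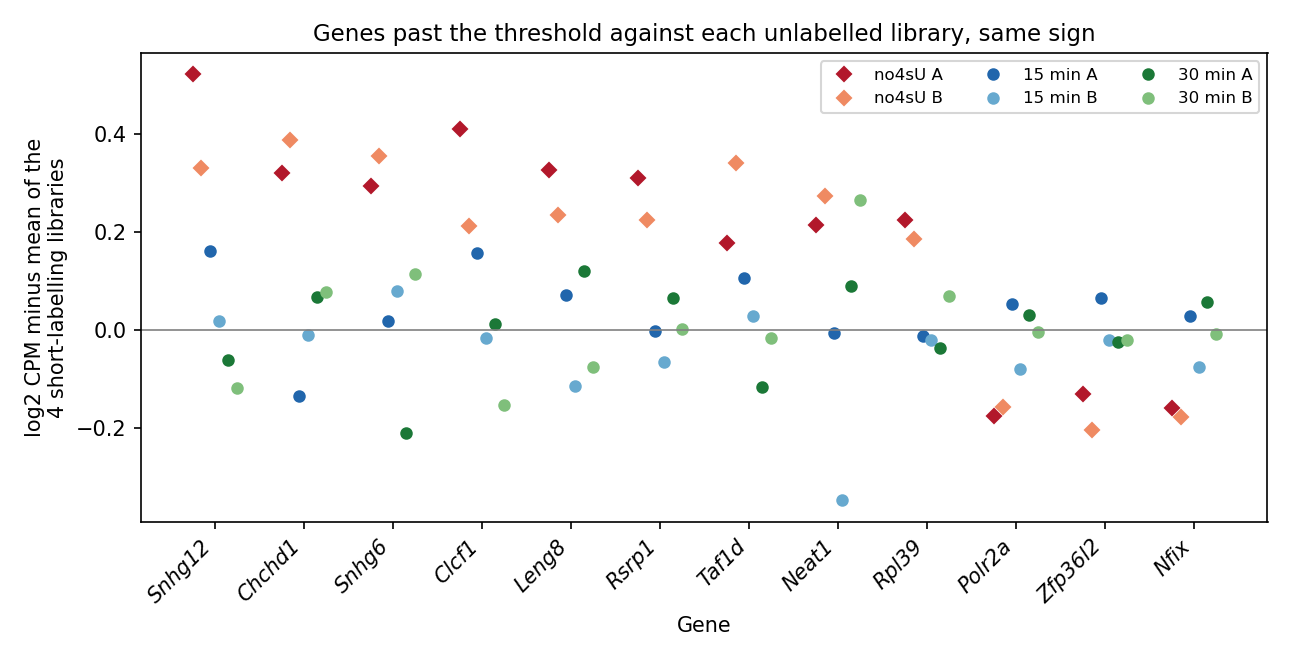
Log2 CPM of the 12 genes in each unlabelled (diamonds) and short-labelling (circles) library, minus the mean of the 4 short-labelling libraries. Snhg12 of no4sU A and B lies at 0.52 and 0.33, both unlabelled libraries lie below 0 for Polr2a, Zfp36l2 and Nfix, and 30 min B of Neat1 lies among the unlabelled libraries.

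Over the longer labelling times, scaled over all 12 libraries, Snhg6, Rsrp1, Snhg12, Leng8, Clcf1 and Taf1d were called lower than in no4sU as well (edgeR adjusted p between 0.0011 and 0.021), with log2 fold changes between -0.20 and -0.44. Of all 11564 genes in that fit, 447 were called lower (3.87%) and 243 higher (2.1%). The other 6 of the 12 were not, with log2 fold changes between -0.053 and 0.14. These comparisons share the unlabelled libraries with those at 15 and 30 min.

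Lists of transcripts at the ends of the length range gave different counts with each unlabelled library. Of 30 tested genes of very long mRNAs, 27 were called higher with labelling against no4sU A and 0 against no4sU B, where 10.3% and 0.665% of all genes were called higher, with medians of 0.30 and 0.0023. Syne2, a giant protein that ties the nucleus to the cytoskeleton, was at 60.8 CPM in no4sU A, 91.7 CPM in no4sU B and between 85.4 and 95.1 CPM with labelling. Birc6, a giant inhibitor of apoptosis, was at 319 CPM in no4sU A, 438 CPM in no4sU B and between 428 and 446 CPM with labelling. In both genes only no4sU A was low. Between the unlabelled libraries, 24 of the 30 were called lower in no4sU A and 0 higher, beside 10% and 7.48% of all genes.

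Among 83 tested cytosolic ribosomal protein genes, whose mRNAs are short and stable, 80 were called lower with labelling against no4sU A and 1 against no4sU B, where 1 was called higher, with medians of -0.20 and -0.014. Of all genes 6.26% were called lower against no4sU A, and 0.324% lower and 0.665% higher against no4sU B. Between the unlabelled libraries, 59 of the 83 were called higher in no4sU A and 0 lower, beside 7.48% and 10% of all genes. Rpl30 was at 353 CPM in no4sU A, 317 CPM in no4sU B and between 275 and 292 CPM with labelling, the lowest log2 fold change of the list with both as reference (-0.24 ± 0.061, SE), and Rpl7l1 had the highest, -0.0082. Of 83 respiratory chain genes, 41 were called lower against no4sU A and 0 against no4sU B, where 2 were called higher, beside the same shares of all genes, and 37 were called higher in no4sU A than in no4sU B and 1 lower, beside 7.48% and 10%. Ndufs5, a subunit of complex I, was at 23.2 CPM in no4sU A, 20.4 CPM in no4sU B and between 17.6 and 18.2 CPM with labelling. Of 25 extracellular matrix genes, 11 were called higher and 1 lower against no4sU A, beside 10.3% and 6.26% of all genes, and 1 higher against no4sU B, beside 0.665%. Fn1, fibronectin, was at 5846 CPM in no4sU A, 6650 CPM in no4sU B and between 6700.2 and 7174 CPM with labelling, and Lox, which cross-links collagen, had the highest log2 fold change of this list with both as reference, 0.19 ± 0.055 (SE).

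**Figure D4:**
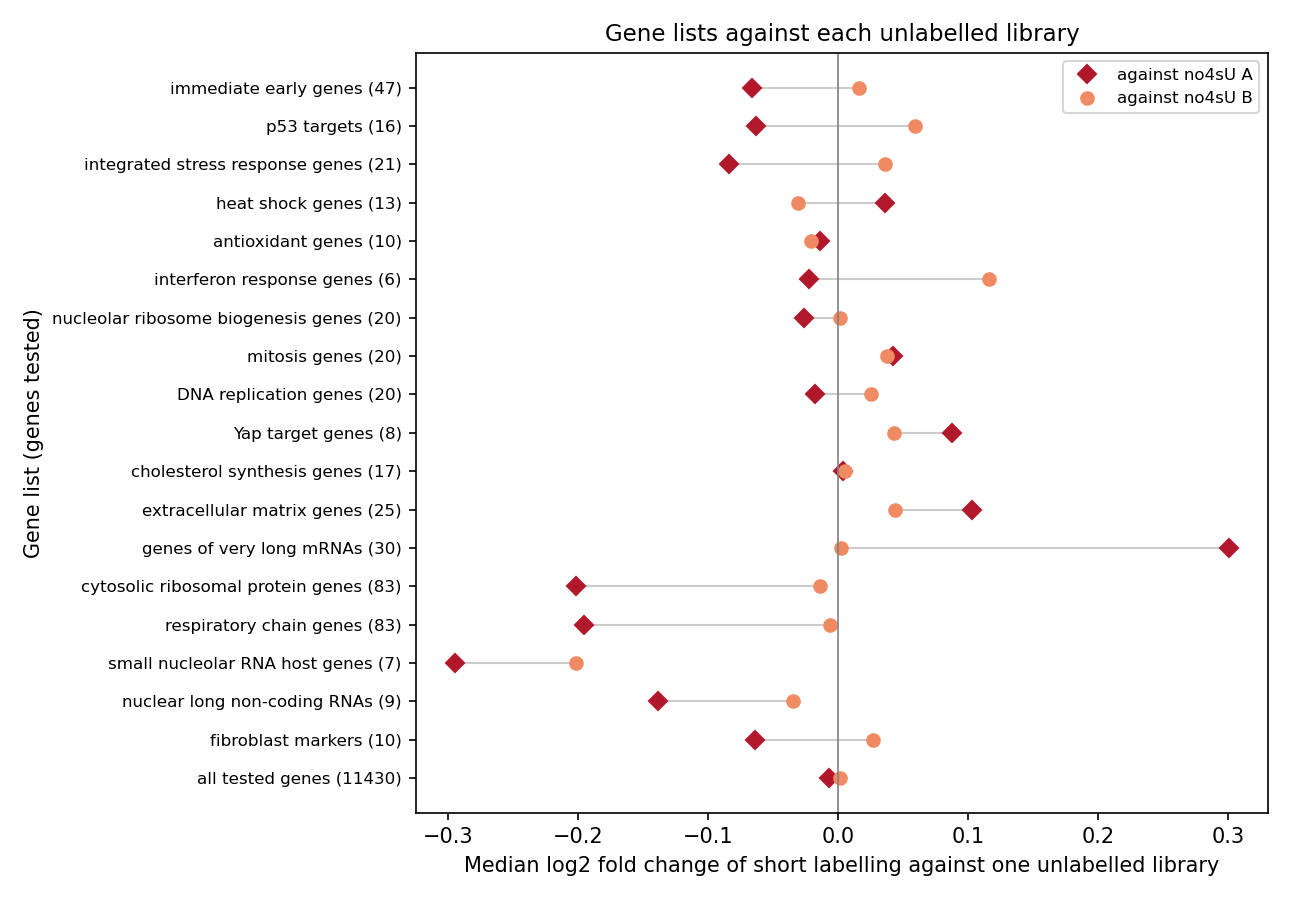
Median log2 fold change of the tested genes of each list against no4sU A (diamonds) and against no4sU B (circles), with the number of genes tested in parentheses. Very long mRNAs lie at 0.30 against A and near 0 against B, ribosomal protein genes at -0.20 and near 0, and small nucleolar RNA host genes at -0.29 and -0.20.

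Among well-counted genes whose groups did not overlap, Pawr, a pro-apoptotic partner of WT1, had the highest log2 fold change with both unlabelled libraries as reference. It was at 8.73 and 8.56 CPM without 4sU and between 10.2 and 14.4 CPM with it (0.51 ± 0.15, SE). Aph1b, a subunit of gamma-secretase, Gm43191, Klf12 and Ptchd4 followed with 0.43, 0.40, 0.38 and 0.36. Rab26os, an antisense transcript that overlaps Snord60, was at 11.04 and 10.6 CPM without 4sU, at 9.38 and 8.06 CPM at 15 min and at 6.91 and 7.38 CPM at 30 min (-0.45 ± 0.13, SE), with an NTR of 90.2% and 68.1% at 30 min. It was followed by Snhg12, Wdr83, Srrm4 and Bscl2, with log2 fold changes of -0.42, -0.39, -0.37 and -0.36. None of these 10 passed the threshold (edgeR adjusted p = 0.977). Rab26os, Snhg12, Wdr83, Srrm4, Bscl2 and Gm43191 overlap other genes, so reads of the overlapping genes cannot be told apart where strand was not used.

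By gene class, 0 of 150 tested long intergenic non-coding RNAs and 0 of 118 antisense RNAs were called with both unlabelled libraries as reference. Of the 150, 18 were without overlap and lower and 4 without overlap and higher, beside 798 and 688 of all 11430, with a median log2 fold change of -0.082. Against no4sU A, 8 were called lower and 5 higher, beside 6.26% and 10.3% of all genes, and against no4sU B, 6 lower and 0 higher, beside 0.324% and 0.665%. Of the 118 antisense RNAs, 12 were without overlap and lower and 4 without overlap and higher, with a median of -0.068. Their median was -0.094 against no4sU A and -0.045 against no4sU B. The list of nuclear long non-coding RNAs, with 9 tested, had 0 called with both as reference and a median of -0.21. Against no4sU A and no4sU B its medians were -0.14 and -0.035. Meg3, an imprinted non-coding RNA, was at 101 and 112 CPM without 4sU and between 86.5 and 94.3 CPM with it, with an NTR of 2.08% and 3.23% at 30 min.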

How the data were processed

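The authors deposited 1 table of 17419 genes. Its estimated counts per gene and library are the authors' read counts, with 20.4% of values not whole (tolerance 1e-06), and were rounded here. NTR was deposited as a fraction per labelled library, per the file headers, and is printed here as a percent of its posterior maximum. The submitters' processing notes name cutadapt, Bowtie2 2.3.0 and STAR 2.7.10b, without roles. No source used here gives the build, the counting tool or whether counting used the strand. The deposited length equalled that of the longest GENCODE M21 transcript (GRCm38) in 98.8% of genes, which gave GC content and coordinates, with 23 genes unmatched.

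Counts were tested with edgeR 4.0.16 (filterByExpr, TMM, quasi-likelihood, no4sU, 15 and 30 min as groups, short labelling as the mean of 15 and 30 min, threshold adjusted p below 0.05) in R 4.3.3, with DESeq2 1.42.0 and limma 3.58.1 as alternatives, and the code was tested on simulated data. CPM uses TMM library sizes, and log2 differences between libraries a pseudocount of 1. Spearman correlations and SDs used genes whose mean count was 100 or more. The 4 against 2 libraries allow no exact two-sided permutation p below 0.133.

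Named genes were the 5 largest rises and falls without overlap, the genes past the threshold against each unlabelled library, the 5 largest differences each way between the unlabelled libraries, and the extremes of each list, all at a mean count of 100 or more. Some list members are named beyond this rule, after their values were seen. The members, lists and rules were chosen with earlier results of these data known.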

Additional observations from a re-analysis of the deposited data

How the results depend on the processing

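Of the counts of calls, those of short labelling, 15 min and 30 min against no4sU were 0 with DESeq2 size factors, library size only, a mean count of at least 100, all 12 libraries, and DESeq2 and limma voom. With no filter on low counts they were 3, 4 and 3. The length and GC correction gave 1 for short labelling (Taf1d) and 1 for 30 min. Leaving out single libraries gave between 0 and 1863 genes for short labelling (107 without no4sU A and 1863 without no4sU B), 0 and 1465 for 15 min, 0 and 1549 for 30 min, and 0 and 2 for 30 against 15 min. The labels do not say whether the replicate letters pair the samples, and the main fits used no pairing. Correlations of the A minus B deviations between groups were between -0.0321 and 0.149. They cannot decide the question, as no4sU A and B also differed by length and GC content. A replicate block gave 0 calls in each, and the replicate block with length correction 8, 3 and 3, or with length and GC correction 10, 4 and 10. For short labelling 6 of the 12 same-sign genes were past the threshold in both (Snhg12, Taf1d, Rsrp1, Leng8, Clcf1 and Neat1). The log2 fold change of Neat1 was -0.24 in the main fit and -0.41 with the replicate block and length correction.

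Against no4sU A alone the GC correction gave 1227 genes, the length correction 478 and both 323. Against no4sU B alone the values were 47 (GC), 46 (both) and 68 with all 12 libraries, and leaving out labelled libraries gave 106 to 225. Between the unlabelled libraries they were 955, 707 and 337. The count of 12 genes became 5 with all 12 libraries, all of them among the 12, and 7 with the length correction, 3 of them among the 12, and 11 to 21 without single labelled libraries. The rho of the change with length, 0.461, was 0.385 and 0.657 at mean counts of at least 10 and 1000, and between -0.175 (without no4sU A) and 0.604 without single libraries. The rho with GC content, -0.223, ranged from -0.472 (without no4sU B) to 0.383 (without no4sU A). The change of short labelling against no4sU was followed over these settings for 21 named genes, and none of them changed sign. They were the largest rises and falls without overlap and the 12 same-sign genes. For the other named genes it was not followed. Taking 15 and 30 min as 1 group applies only to short labelling and gave 0. Where a count moved, the cause was not tested.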
